A study of Mus musculus with 16 samples.

Results

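CXCL9, CXCL10 and CXCL11, their shared receptor CXCR3, and CCL5 were followed at the RNA level in mouse lung. The members were chosen by name, as every array spot annotated to Cxcl9, Cxcl10, Cxcl11, Cxcr3 or Ccl5, which gave 5 genes and 8 spots out of 20863 genes and 31465 named spots. Cxcl9, Cxcl10 and Cxcl11 had 2 spots each and Cxcr3 and Ccl5 had 1 each. All 5 genes passed the filter on dim spots.

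Whole lungs of C57BL/6 mice aged 9 to 12 weeks were hybridised on 16 single-colour Agilent arrays. Every mouse first received a target site blocker (TSB), an oligonucleotide made to cover one site on an RNA, by the intratracheal route. It was directed at Cav1 (CAV1 TSB, 5 mg/kg) or was a control formulated for use in animals (Control TSB, whose dose the labels do not state), and it was given 4 and 2 days before and again 4 days after the challenge. The challenge was intratracheal bleomycin at 1 unit/kg, which damages lung tissue and is used to model fibrosis, or PBS. The groups were PBS with the control blocker (n = 2), PBS with the CAV1 blocker (n = 2), bleomycin with the control blocker (n = 6) and bleomycin with the CAV1 blocker (n = 6). The controls therefore also carried a blocker, and no lung without one is among these groups. The labels state neither the day of collection nor whether each array comes from its own mouse, and the p-values speak only to how far these arrays vary, which may be technical. In whole lung, fewer cells of a type and less RNA per cell cannot be told apart.

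CXCR3 is a chemokine receptor of activated T cells and NK cells, and its ligands CXCL9, CXCL10 and CXCL11 draw these cells into inflamed tissue. Interferon gamma is the classical inducer of Cxcl9, and Cxcl10 also answers to type I interferon and to NF-kappaB. CCL5 is made largely by T cells, NK cells and platelets and draws leukocytes. In the C57BL/6J reference, RefSeq annotates Cxcl11 as a transcribed pseudogene, beside the protein-coding Cxcl9 and Cxcl10 on chromosome 5. Cxcr3 lies on chromosome X and Ccl5 on chromosome 11.

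The upstream sequences of the ligand genes that differed between the groups are shown because both carry sites of the interferon and NF-kappaB kind in textbook accounts. Each is the 250 bases before the annotated start from RefSeq (GRCm38.p6), read 5′ to 3′ on the gene's strand. The Cxcl9 window is chr5:92328080-92328329 and the Cxcl10 window is chr5:92348890-92349139, both on the minus strand. Capitals mark matches to the core of the interferon-stimulated response element (ISRE), searched as GAAA, any 2 bases and GAAA, and to an NF-kappaB-like motif, searched as GGG, any 3 bases, T, any 1 base and CC, both on both strands.
Cxcl9: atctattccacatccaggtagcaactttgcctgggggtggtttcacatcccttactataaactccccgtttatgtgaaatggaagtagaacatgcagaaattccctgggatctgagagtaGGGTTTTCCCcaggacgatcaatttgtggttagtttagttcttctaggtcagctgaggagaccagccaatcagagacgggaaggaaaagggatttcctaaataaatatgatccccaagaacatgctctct
Cxcl10: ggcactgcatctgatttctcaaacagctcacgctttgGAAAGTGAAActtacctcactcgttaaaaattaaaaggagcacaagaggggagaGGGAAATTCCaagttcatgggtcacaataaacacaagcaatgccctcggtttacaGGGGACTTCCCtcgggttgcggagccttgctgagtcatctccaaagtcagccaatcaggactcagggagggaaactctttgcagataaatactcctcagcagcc
The Cxcl10 window held GAAAGTGAAA at 213 to 204 bases before the start, GGGAAATTCC at 159 to 150, and the overlapping GGGGACTTCC and GGGACTTCCC at 104 to 95 and 103 to 94. The Cxcl9 window held GGGTTTTCCC at 130 to 121 and no match to the ISRE core. Among 32851 promoter windows of this length, 2.98% held the ISRE core, 14.9% held the NF-kappaB-like motif and 0.374% held both. No match to TTCNNNGAA, the interferon gamma activated sequence, was found in the Cxcl9, Cxcl10 or Cxcr3 window; 7.02% of windows held one. These matches are descriptions of letters and not measured binding.

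Facts of the whole series bear on the values below. The deposited log2 signals had array medians of 6.51 to 6.52 and correlated between arrays at r = 0.97 to 0.998. Lung marker genes were high on every array, with a list level of 14.40 to 15.06. Skeletal muscle markers divided the PBS groups and varied within the bleomycin groups: the list level was 10.32 to 12.86 on 11 arrays and 7.29 to 8.60 on the other 5, which were both PBS arrays with the CAV1 blocker, bleomycin control arrays 2 and 6 and bleomycin CAV1 array 3. All 12 muscle genes were lower with the CAV1 blocker after PBS at an unadjusted p under 0.05 (median -4.01), and 9 of 12 were higher after bleomycin under that blocker. In each comparison that uses the PBS arrays with the CAV1 blocker, muscle RNA and group therefore move together. Under the control blocker, all 12 muscle genes had negative differences after bleomycin (median -1.88, beside 0.0302 over all genes). The list level there was 10.46 to 12.86 with PBS and 7.43 to 10.87 after bleomycin. Squamous epithelium markers ranged from 6.53 to 10.11 over the arrays. The RNA integrity number (RIN) was 10 on bleomycin control arrays 1 and 5 and 9 on all others. Cav1, the blocker's target gene, was 0.24 higher on the log2 scale with the CAV1 blocker after bleomycin, which did not pass the test (limma adjusted p = 0.642).

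Cxcl10 and Cxcl9 rose after bleomycin in lungs given the control blocker, Cxcl10 3.09-fold and Cxcl9 1.89-fold. They were the 2 members of 5 called in that comparison, where 2.41% of the 20304 genes tested were called and 1.96% were called higher (limma, Benjamini-Hochberg adjusted p under 0.05). Cxcr3, Cxcl11 and Ccl5 were not called.

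Cxcl10, the ligand best known as an interferon-induced alarm chemokine, had log2 signals of 8.51 and 7.77 with PBS and the control blocker. After bleomycin with the control blocker its 6 arrays ranged from 9.50 to 10.10, with a median of 9.79. Every bleomycin array was above both PBS arrays. The log2 difference was 1.63 (SE 0.17, adjusted p = 9.76e-04), which ranked 2 of all genes by p.

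Cxcl9, the ligand most closely tied to interferon gamma, read 7.25 and 6.95 with PBS and the control blocker. After bleomycin with that blocker it ranged from 7.90 to 8.09, with a median of 8.04. The groups did not overlap. The log2 difference was 0.92 (SE 0.14, adjusted p = 0.0105).

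**Figure D1:**
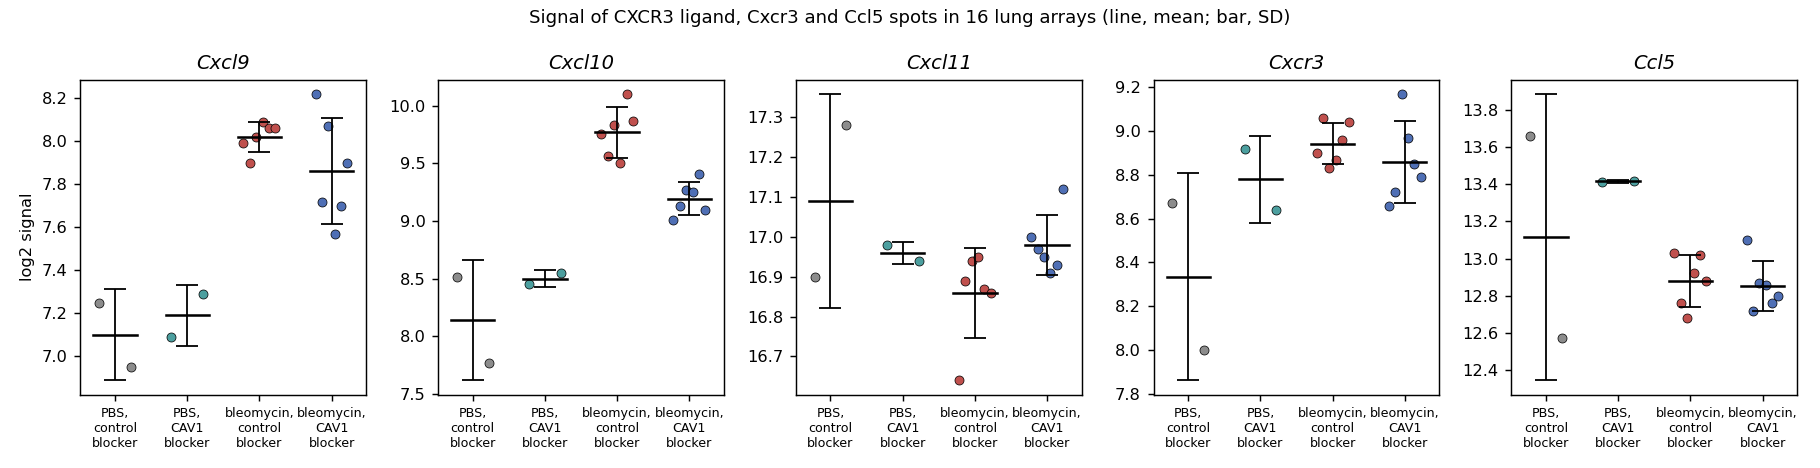
Log2 signal of the brightest spot of Cxcl9, Cxcl10, Cxcl11, Cxcr3 and Ccl5 (y axes, separate scales) on each of the 16 arrays by group (x axis); points are arrays, lines are means and bars are SDs. Cxcl10 is the panel in which the bleomycin groups separate, at 9.50 to 10.10 with the control blocker and 9.01 to 9.41 with the CAV1 blocker.

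In lungs given the CAV1 blocker, neither Cxcl10 nor Cxcl9 passed the test after bleomycin, although the bleomycin arrays of both genes lay above both PBS arrays. Non-overlap in that direction was seen for 8.38% of genes. Cxcl10 read 8.45 and 8.55 with PBS and 9.01 to 9.41 after bleomycin, a log2 difference of 0.70 (SE 0.17, adjusted p = 0.0792). Cxcl9 read 7.09 and 7.29 with PBS and 7.57 to 8.22 after bleomycin, a difference of 0.67 (SE 0.14, adjusted p = 0.0506). No member was called in that comparison, where 0.517% of genes were. Both missed the threshold by a margin that single arrays could move: without bleomycin CAV1 array 1 the adjusted p was 0.0389 for Cxcl10 and 0.0175 for Cxcl9.

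Averaged over both blockers, bleomycin raised Cxcl10 by 1.16 (SE 0.12, adjusted p = 2.45e-04) and Cxcl9 by 0.80 (SE 0.10, adjusted p = 8.89e-04) on the log2 scale. These were again 2 of 5 members, against 5.93% of all genes called and 4.25% called higher. All 12 bleomycin arrays were above all 4 PBS arrays for both genes, which held in the upward direction for 1.04% of genes. An exact permutation within each blocker, added after the data were seen, gave p = 0.00128 for each, the smallest its 784 assignments allow. Since the arrays did not overlap, it had to give that value and is no further test.

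**Figure D2:**
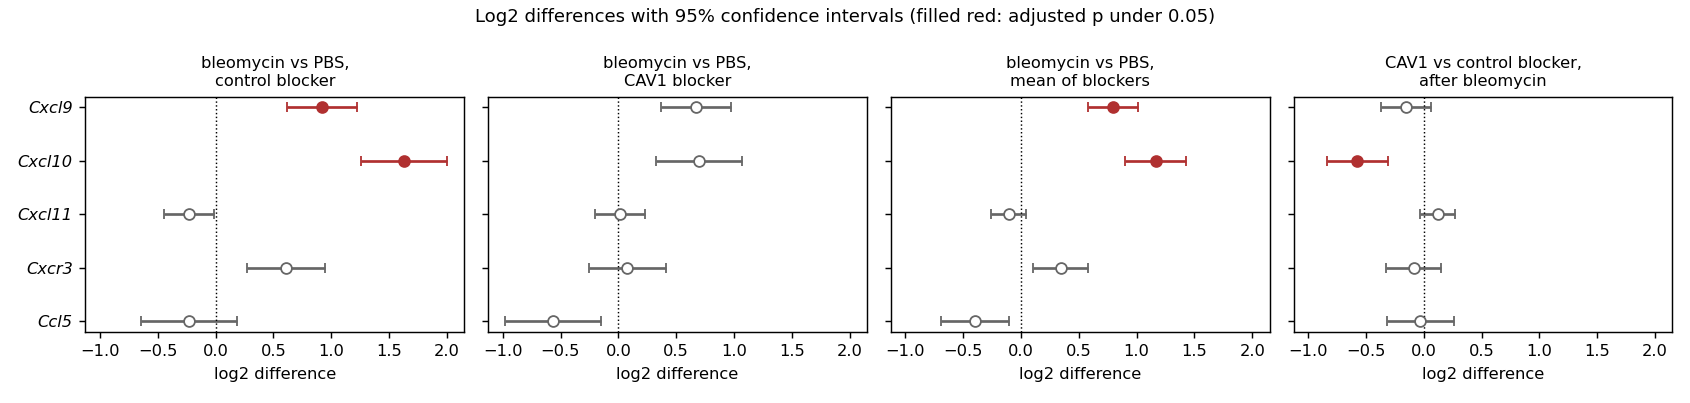
Log2 differences (x axes) of the 5 genes in 4 comparisons, with 95% confidence intervals; filled red points have a limma adjusted p under 0.05. Cxcl9 and Cxcl10 are filled in the comparison under the control blocker and in the average, and Cxcl10 alone is filled in the comparison of the blockers after bleomycin, at -0.57.

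The bleomycin calls depended on several choices. Under the control blocker, array weights left no gene of the series called, so the Cxcl10 call (adjusted p = 0.271) and the Cxcl9 call were lost. Without PBS control array 2 the Cxcl9 difference was 0.77. That fit leaves a lone array in its group, so only the size is given, and it does not show that the call holds. With the monocyte list level as a covariate, Cxcl10 stood at 1.46 (adjusted p = 0.333) and Cxcl9 at 1.35 (adjusted p = 0.164), and no gene was called. With the type I interferon response list level as a covariate they stood at 1.01 (adjusted p = 0.485) and 0.81 (adjusted p = 0.699), and 1 gene was called. Array weights and both covariates took away nearly all calls of that comparison, so the loss is not particular to Cxcl10 and Cxcl9. The averaged calls were lost with these covariates too, at adjusted p = 0.479 and 0.0607 for Cxcl10 and 0.0592 and 0.118 for Cxcl9. Both covariates were chosen after the data were seen, and both lists themselves moved with bleomycin.

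Cxcl10 fell with the CAV1 blocker after bleomycin, to 0.672 of its level with the control blocker. The 6 arrays with the control blocker read 9.75, 9.56, 9.83, 9.50, 10.10 and 9.87, and the 6 with the CAV1 blocker read 9.01, 9.13, 9.27, 9.25, 9.41 and 9.09. The groups did not overlap, which was so in the downward direction for 0.832% of genes. The log2 difference was -0.57 (SE 0.12, 95% interval -0.84 to -0.31, adjusted p = 0.0244). It was the 1 member of 5 called, where 1.61% of genes were called and 0.414% were called lower. The exact permutation test over the 12 arrays gave p = 0.00216, the smallest of 924 assignments (two-sided, unadjusted, 5 members tested).

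The call did not hold in several fits, although the difference kept its direction. Leaving out any one of bleomycin control arrays 1, 3, 5 and 6 or bleomycin CAV1 arrays 1, 2 and 6 gave differences of -0.58 to -0.51 and adjusted p-values of 0.0544 to 0.0654. With RIN as a covariate the difference was -0.50 (adjusted p = 0.154), with the monocyte list -0.47 (adjusted p = 0.542), and with the type I interferon response list -0.22 (adjusted p = 0.795). Over the arrays with a RIN of 9 alone (4 against 6), the difference was -0.50. Without the arrays low in muscle markers (4 against 5), it was -0.62. Both subsets were chosen after the data were seen. Since the full groups did not overlap, no subset of them could overlap. The exact permutation p-values, 0.00476 (210 assignments) and 0.00794 (126 assignments), therefore had to lie at or near the smallest possible. They are no further test.

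No other member was called between the blockers after bleomycin. Cxcl9 differed by -0.16 (95% interval -0.37 to 0.06, adjusted p = 0.777), and its CAV1 arrays, at 8.22, 7.72, 8.07, 7.57, 7.70 and 7.90, overlapped the control arrays. The difference between Cxcl10 and Cxcl9 on the same array was lower with the CAV1 blocker by 0.42 on the log2 scale (exact permutation p = 0.0238, chosen after the data were seen). Cxcr3 differed by -0.09 (95% interval -0.32 to 0.15), Ccl5 by -0.03 (-0.32 to 0.26) and the brighter Cxcl11 spot by 0.12 (-0.03 to 0.27). The exact permutation p was 0.0238 for that Cxcl11 spot, 0.171 for Cxcl9, 0.327 for Cxcr3 and 0.716 for Ccl5, unadjusted over 5 members. The dimmer Cxcl11 spot stood at -0.32 (adjusted p = 0.683).

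Whether the bleomycin response of Cxcl10 differs between the blockers is the interaction, which was -0.93 (SE 0.25, unadjusted p = 0.00185, limma adjusted p = 0.497). No gene of 20304 was called for the interaction by limma, while 1873 (9.22%) had an unadjusted p under 0.05. The result rests on the pair of PBS control arrays, whose Cxcl10 signals were 8.51 and 7.77. Without PBS control array 1 the interaction was -1.30 for Cxcl10, -0.87 for Cxcr3 and -0.88 for Ccl5. Without PBS control array 2 it was -0.56, -0.20 and 0.21. Each fit of this kind leaves a lone PBS control array, so only the sizes are given. With PBS alone no member was called between the blockers, where 0.31% of genes were. The largest such difference was that of Cxcr3, at 0.44 (adjusted p = 0.386). These values also turn on the PBS control pair. Without array 1 the differences were 0.72 for Cxcl10, 0.78 for Cxcr3 and 0.85 for Ccl5. Without array 2 they stood at -0.0093, 0.11 and -0.24.

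**Figure D3:**
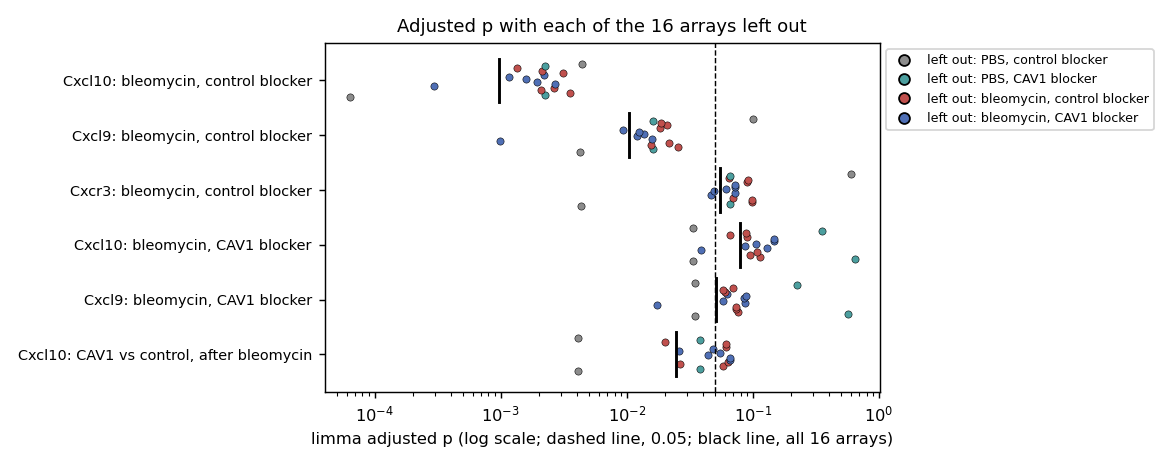
Limma adjusted p (x axis, log scale) for 6 member results with each of the 16 arrays left out in turn; points are coloured by the group of the array left out, black lines are all 16 arrays and the dashed line is 0.05. The Cxcl10 rise with bleomycin under the control blocker stays left of the dashed line for every bleomycin array left out. The Cxcl10 difference between the blockers crosses it for 7 arrays. Points for a left-out PBS array come from fits with a lone array in that group and are not read.

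Cxcr3, the receptor, did not pass the test in any comparison. It read 8.67 and 8.0 with PBS and the control blocker and 8.83 to 9.06 after bleomycin, so the groups did not overlap. Non-overlap in that direction was seen for 8.55% of genes. The log2 difference was 0.61 (SE 0.16, adjusted p = 0.0552). Without PBS control array 1 it was 0.94, and without PBS control array 2 it was 0.27. Each of these fits leaves a lone PBS control array, so only the sizes are given. With the CAV1 blocker it read 8.92 and 8.64 after PBS and 8.66 to 9.17 after bleomycin, a difference of 0.08 (adjusted p = 0.86).

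Ccl5, a product of T cells, NK cells and platelets, was among the brighter spots, at the 94.3 to 97.0 percentile of all spots. It read 13.66 and 12.57 with PBS and the control blocker, 13.41 and 13.42 with PBS and the CAV1 blocker, 12.68 to 13.03 after bleomycin with the control blocker and 12.72 to 13.10 with the CAV1 blocker. The bleomycin arrays with the CAV1 blocker were all below their PBS arrays, which was so in that direction for 12.3% of genes. The log2 difference there was -0.56 (SE 0.19, adjusted p = 0.183), and under the control blocker it was -0.23 (adjusted p = 0.593). Under the CAV1 blocker the same difference was called at -0.59 with array weights (adjusted p = 0.0039), which called many more genes than the main fit. With the T and NK cell list level as a covariate it was 0.11 (adjusted p = 0.972). Under the control blocker the PBS arrays decide the sign: the difference was 0.32 without PBS control array 1 and -0.78 without PBS control array 2. With the T and NK cell covariate it was 0.44 (adjusted p = 0.167).

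Cxcl11, annotated as a pseudogene in this strain's reference, had spots that disagreed. Its brighter spot read 16.64 to 17.28 over the 16 arrays, at or above the 99.8 percentile of all spots on every array. Its dimmer spot, of the same transcript accession in the annotation, read 10.84 to 12.11. The 2 spots correlated at r = -0.646 over the arrays. Under the control blocker, bleomycin gave -0.23 at the brighter spot (adjusted p = 0.288) and 0.29 at the dimmer one (adjusted p = 0.62), and neither was called in any comparison when every spot was tested. What the brighter spot measures is not settled by these data, so no direction is given for Cxcl11.

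The spots of the other ligands differed in how far they could be read. Both Cxcl9 spots rose after bleomycin under the control blocker, by 0.92 (adjusted p = 0.00958) and 0.52 (adjusted p = 0.0492), and correlated at r = 0.901. The second Cxcl10 spot, annotated to another transcript accession, was above the median of its array on 1 array and spanned 5.84 to 6.94. Its bleomycin difference under the control blocker was 0.24 (adjusted p = 0.556) and its blocker difference -0.17 (adjusted p = 0.808). The Cxcl10 results above thus come from 1 spot.

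**Figure D4:**
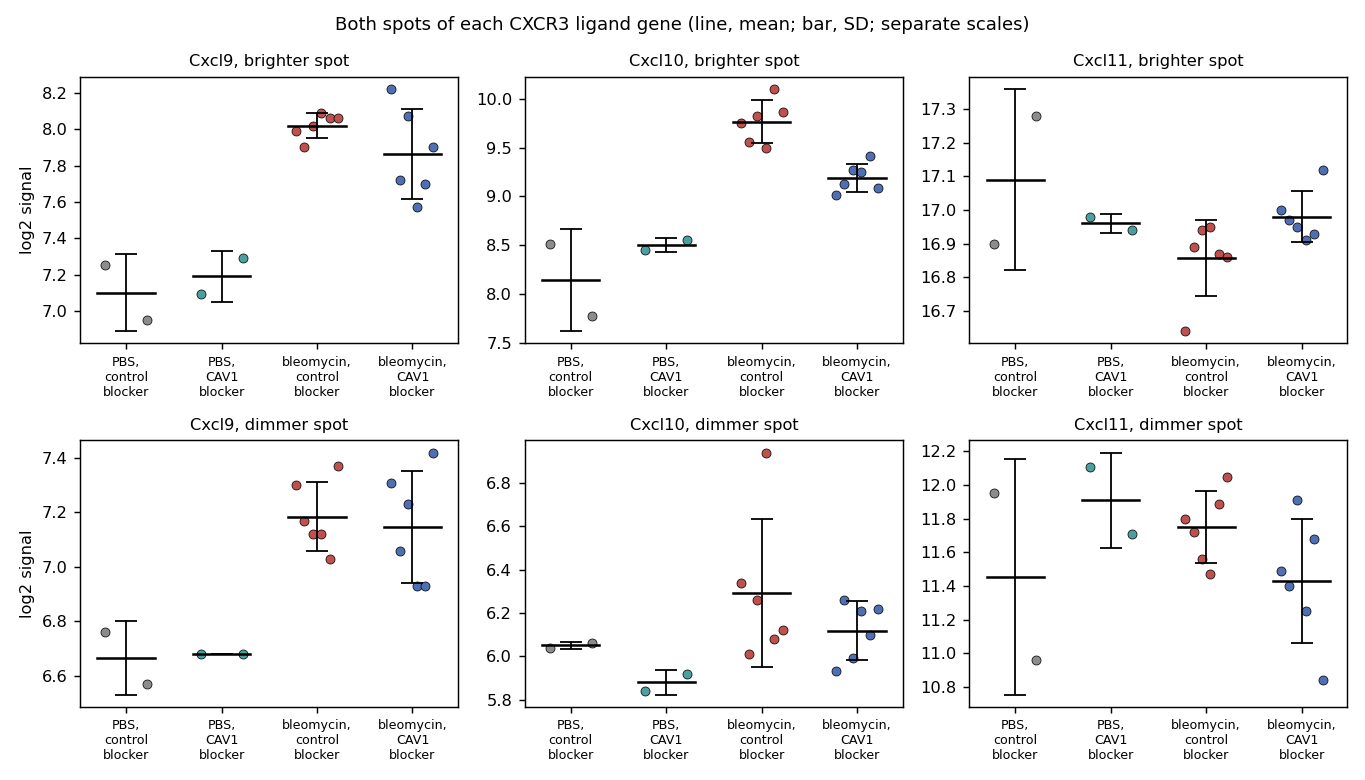
Log2 signal (y axes, separate scales) of both spots of Cxcl9, Cxcl10 and Cxcl11 by group (x axes); points are arrays, lines are means and bars are SDs. The Cxcl9 spots show the same order of groups, the dimmer Cxcl10 spot lies at 5.84 to 6.94, and the Cxcl11 spots lie at 16.64 to 17.28 and 10.84 to 12.11.

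Genes of the interferon pathways gave a split picture. Of 18 type I interferon response genes tested, 5 were called higher after bleomycin under the control blocker, as were 1.96% of all genes, and none was called lower. They included Mx1, an antiviral GTPase, at 1.08 (adjusted p = 0.0166), Oas1a, an antiviral RNA sensor, at 0.90 (adjusted p = 0.0237) and Zbp1, a nucleic acid sensor, at 0.67 (adjusted p = 0.0274). The median of the 18 was 0.417, beside 0.0302 over all genes. Leaving out 1 array gave 0 to 9 called. Under the CAV1 blocker none of the 18 was called and the median was 0.0969.

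Between the blockers after bleomycin, 1 of the 18 was called lower, Mx1 at -0.59 (adjusted p = 0.0327), as were 0.414% of all genes. None was called higher. The median was -0.219, beside -0.0114 over all genes, and 11 of 18 were lower at an unadjusted p under 0.05, which 9.08% of all genes passed in either direction. The list level was 10.30 to 10.61 with the control blocker and 10.09 to 10.35 with the CAV1 blocker. It moved with Cxcl10, and its part in the Cxcl10 difference beyond the covariate fit was not tested. Of 15 genes of type I interferon and its signal, Sting1, the adaptor of DNA sensing, was the 1 called in the average over blockers, at 0.41 (adjusted p = 0.024). In that average 5.93% of all genes were called. Ifnb1, the type I interferon gene itself, stayed between 5.78 and 6.10 on the bleomycin arrays, close to the dimmest signals, and differed by -0.12 (adjusted p = 0.539).

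The interferon gamma side gave few calls. None of 25 interferon gamma response genes was called in any comparison by limma, and in the average over blockers 4 of the 25 had an unadjusted p under 0.05, as did 17.4% of all genes. Their median after bleomycin under the control blocker was 0.01. Of 13 genes of interferon gamma and its signal, Il12b, a subunit of the cytokine that drives T helper 1 cells, rose by 0.65 in the average over blockers (adjusted p = 0.00341), and Tbx21, the master factor of those cells, fell by 0.33 (adjusted p = 0.0311). In that average 4.25% of all genes were called higher and 1.68% lower. None of 12 NF-kappaB and TNF genes was called in any comparison, and 3 of them had an unadjusted p under 0.05 in the average.

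**Figure D5:**
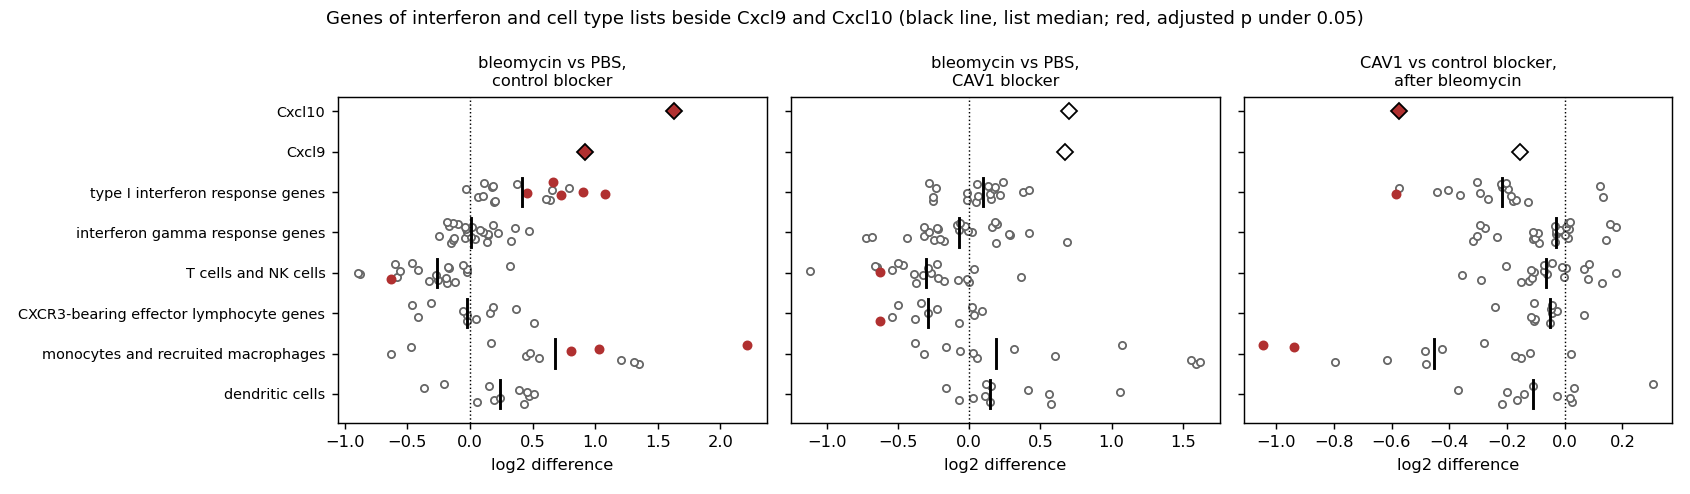
Log2 differences (x axes) of each gene of 6 lists, with Cxcl10 and Cxcl9 on top, in 3 comparisons; black lines are list medians and red marks have a limma adjusted p under 0.05. In the first panel 5 type I interferon response genes are red and no interferon gamma response gene is, and in the third panel Mx1, Itgam and Ms4a7 are the red marks below Cxcl10.

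Marker RNA of the cells that bear CXCR3 and of myeloid cells was called in opposite directions after bleomycin. T cell and NK cell markers were lower after bleomycin: in the average over blockers 5 of 20 fell and none rose, with a median of -0.29, where 1.68% of all genes fell. Gzma, a granzyme, fell by 0.84 (adjusted p = 0.00907) and Prf1, perforin, fell by 0.48 (adjusted p = 0.0124). Their list level was 8.89 to 9.29 on PBS arrays and 8.60 to 8.86 on bleomycin arrays. Leaving out 1 array gave 0 to 10 called lower. Of 11 genes of effector lymphocytes that bear CXCR3, 4 fell in the average, among them Gzmb by 0.48 (adjusted p = 0.0237), and leaving out 1 array gave 0 to 4. That list was mixed, with 5 positive and 6 negative differences and a median of -0.0664, beside 0.00656 over all genes. Between the blockers after bleomycin none of the 20 was called.

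Among monocyte and recruited macrophage markers, 6 of 12 were called higher after bleomycin in the average over blockers and none was called lower. In that average 4.25% of all genes were called higher. Leaving out 1 array gave 3 to 9 called. In the average 3 of the 12 had negative differences, 2 of them at an unadjusted p under 0.05. Under the CAV1 blocker alone none of the 12 was called after bleomycin. Among those called in the average, Ms4a7, a macrophage membrane gene, rose by 1.65 (adjusted p = 0.00126) and Fcgr1, an Fc receptor, by 0.67 (adjusted p = 0.00367). With the CAV1 blocker after bleomycin, Ms4a7 fell by 1.04 (adjusted p = 0.0236) and Itgam, an integrin of myeloid cells, fell by 0.94 (adjusted p = 0.00271). The list level was 12.45 to 12.68 with the control blocker and 11.66 to 12.28 with the CAV1 blocker, with no overlap, and 11.55 to 11.88 on PBS arrays. The list level thus moved with Cxcl10, and the part of these markers in the Cxcl10 difference was not tested beyond the covariate fit above.

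Some genes of the dendritic cell list were called, while those of the B cell, lymph node and platelet lists were not. Among 11 dendritic cell genes, 3 rose and 1 fell in the average over blockers, where 4.25% of all genes rose and 1.68% fell, with Flt3, a growth factor receptor of these cells, at 0.54 (adjusted p = 0.0149). With 1 array left out, 0 to 3 were called higher and 0 to 1 lower. None of 7 B cell, 7 lymph node and 7 platelet genes was called in the comparisons with bleomycin or between the blockers after it. In the average, all 7 B cell genes and all 7 platelet genes had negative differences, with medians of -0.367 and -0.387, and platelet genes had a median of -0.605 under the control blocker. Platelets are a source of Ccl5, and the part of these markers in its values was not tested.

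Partners of the members followed several patterns in the average over blockers, where 4.25% of all genes were called higher and 1.68% lower. Of 7 tested chemokines and receptors listed as related to Ccl5, 2 rose in the average over blockers: Ccl8 by 1.26 (adjusted p = 1.6e-04) and Ccl7 by 1.02 (adjusted p = 0.0093), both chemokines that draw monocytes. Ccr3, the eosinophil receptor, stood at -0.45 (adjusted p = 0.0533). Among 9 genes listed as regulators of chemokines or their signals, Socs3, a brake on cytokine signalling, rose by 0.72 (adjusted p = 0.00233). Ackr1, a chemokine-binding receptor without signalling, rose by 0.76 (adjusted p = 0.017), and Ackr4, another such receptor, fell by 0.73 (adjusted p = 0.00337). Of 12 other chemokines that draw lymphocytes, Ccl17 rose by 0.67 (adjusted p = 0.00368) and Cxcl16 by 0.42 (adjusted p = 0.0139).

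Neighbouring genes did not share the ligands' call under the control blocker. Of 9 tested genes within 200 kb of Cxcl9, Cxcl10 and Cxcl11, none was called there by limma, with differences from -0.49 to 0.31. Scarb2, a lysosomal membrane gene, was the 1 called in the average, at 0.42 (adjusted p = 0.0141), where 5.93% of all genes were called. None of the 3 tested beside Cxcr3 was called. Beside Ccl5, 1 of 14 was called under each blocker, Wfdc17 at 1.52 (adjusted p = 7.25e-04) under the control blocker. Over all genes 2.41% were called under the control blocker and 0.517% under the CAV1 blocker.

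No pair of members passed a test of varying together among the bleomycin lungs. As deviations from group means over the 12 bleomycin arrays, Cxcl9 and Cxcl10 correlated at r = -0.216 (Spearman -0.126, permutation p = 0.499 and 0.699, adjusted p over 10 pairs = 0.713). The highest of the 10 pairs was Cxcl9 with Ccl5, at r = 0.567 (Spearman 0.545, permutation p = 0.0538 and 0.0704, adjusted p = 0.538), or 0.45 without the 2 arrays farthest from the median. As deviations over all 16 arrays, 7 of the 10 pairs had an adjusted permutation p of 0.0439 each. There the 2 values of a PBS group mirror each other, so these p-values do not measure covariation between lungs. Among these pairs, Cxcl10 correlated with Cxcr3 at r = 0.579 and with Ccl5 at 0.571. These became 0.237 and -0.0147 without the 2 arrays farthest from the median. By the same deviations over all 16 arrays, which the PBS control pair can dominate, the genes most like Cxcl10 were Psmd14 (r = 0.961), Cenpe (0.942) and Oas1a (0.935). Those most like Cxcl9 were Klra8 (0.842), Fgf18 (0.827) and D3Ertd751e (0.825), although their signals themselves correlated with that of Cxcl9 at -0.405, -0.303 and -0.308. For Cxcr3 they were Il7r (0.91), Ptgir (0.888) and Rab7b (0.887), for Ccl5 Rpl26 (0.92), Eef1d (0.919) and Nifk (0.915), and for the brighter Cxcl11 spot Fam177a2 (0.962), Eef1a1 (0.929) and Zfp488 (0.913).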

How the data were processed

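The authors deposited log2 intensities of 16 single-colour Agilent arrays made with limma, per the submitters' processing notes (version, background correction and normalization not given in the sources used here). Input was 0.2 µg of total RNA, per the labels. Of 62976 spots, 31465 had 1 gene symbol and 31511 had none; 29036 of the named spots matched RefSeq. The brightest spot by mean stood for a gene. Genes above the array's 25th percentile on at least 2 arrays were tested (20304). One limma 3.58.1 fit (R 4.3.3) with a mean per group over 16 arrays (12 residual degrees of freedom) gave 6 contrasts, with Benjamini-Hochberg adjustment over all genes tested; it was tested on simulated data. Exact permutations enumerated all assignments in Python 3.11.15. Rank correlations and the adjustment over pairs used SciPy 1.17.1. The number of arrays limits the precision; no detection marks were used. The rule named the 5 members, Cav1, and the genes of each list with the smallest p, while Scarb2 and Wfdc17 were named after their values were seen. Members and the 18 gene lists were chosen with earlier results of these data known. Alternatives included other filters, spot rules, scalings, array weights, covariates, leaving out each array and a replicate block.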

Additional observations from a re-analysis of the deposited data

Results flagged for a closer look

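Among 16 groups of spots tested for a single distant array, 2 had one; chance gives about 1 in 20 groups. The second Cxcl10 spot read 6.94 on bleomycin control array 4, far above the other 5 arrays of that group, with a gap of 0.642 of the group's range. The brighter Cxcl11 spot read 16.64 on bleomycin control array 1, below the other 5, with a gap of 0.683 of the range. Neither spot gave a call in the report.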

How the results depend on the processing

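Of 920 alternative values of member differences, 841 kept direction and side of the threshold, 24 lost the call, 26 gained it and 29 changed sign. Most of the 920 belong to results not called in the main fit, which had no call to lose. For the Cxcl10 call between the blockers after bleomycin, 10 alternatives lost the call and 21 kept it. The cause of each change was not tested. The monocyte and type I interferon list covariates were chosen after seeing the data. So were the RIN of 9 and low-muscle permutations and the permutation of bleomycin against PBS within each blocker. With array weights, genes called numbered 0 for bleomycin under the control blocker, 2712 for bleomycin under the CAV1 blocker, 367 for bleomycin averaged over blockers, 593 for the blockers after bleomycin and 2 for the blockers after PBS. With replicate block, genes called numbered 1 for bleomycin under the control blocker, 0 for bleomycin under the CAV1 blocker, 9 for bleomycin averaged over blockers, 212 for the blockers after bleomycin and 14 for the blockers after PBS. With RIN covariate, genes called numbered 33 for bleomycin under the control blocker and 214 for the blockers after bleomycin. With skeletal muscle covariate, genes called numbered 238 for bleomycin under the control blocker, 10 for bleomycin under the CAV1 blocker and 4 for the blockers after PBS. With T and NK cell list covariate, genes called numbered 15 for bleomycin under the control blocker, 0 for bleomycin under the CAV1 blocker, 6 for bleomycin averaged over blockers and 113 for the blockers after PBS. With monocyte and recruited macrophage list covariate, genes called numbered 0 for bleomycin under the control blocker, 0 for bleomycin under the CAV1 blocker, 1 for bleomycin averaged over blockers, 18 for the blockers after bleomycin and 21 for the blockers after PBS. With type I interferon response list covariate, genes called numbered 1 for bleomycin under the control blocker, 35 for bleomycin under the CAV1 blocker, 11 for bleomycin averaged over blockers and 90 for the blockers after bleomycin. With compared arrays only, genes called numbered 215 for bleomycin under the control blocker, 0 for bleomycin under the CAV1 blocker and 3 for the blockers after PBS. With filter at the 50th percentile, genes called numbered 164 for bleomycin under the CAV1 blocker. With every spot as its own row, genes called numbered 573 for the blockers after bleomycin and 157 for the blockers after PBS. Array weights changed Cxcl9 for bleomycin under the control blocker to 0.90 (adjusted p = 1), Cxcl10 for bleomycin under the control blocker to 1.58 (adjusted p = 0.271), Cxcl9 for bleomycin under the CAV1 blocker to 0.61 (adjusted p = 0.00316), Cxcl10 for bleomycin under the CAV1 blocker to 0.72 (adjusted p = 0.00147), Cxcl11 for bleomycin under the CAV1 blocker to -0.00541 (adjusted p = 0.974) and Ccl5 for bleomycin under the CAV1 blocker to -0.59 (adjusted p = 0.0039). Replicate block changed Cxcl9 for bleomycin under the control blocker to 0.93 (adjusted p = 0.244), Cxcl10 for bleomycin under the control blocker to 1.51 (adjusted p = 0.066), Cxcl11 for bleomycin under the CAV1 blocker to -0.0265 (adjusted p = 0.973) and Cxcl9 for bleomycin averaged over blockers to 0.81 (adjusted p = 0.117). Monocyte and recruited macrophage list covariate changed Cxcl9 for bleomycin under the control blocker to 1.35 (adjusted p = 0.164), Cxcl10 for bleomycin under the control blocker to 1.46 (adjusted p = 0.333), Ccl5 for bleomycin under the control blocker to 0.0589 (adjusted p = 0.94), Cxcl9 for bleomycin averaged over blockers to 1.16 (adjusted p = 0.0592), Cxcl10 for bleomycin averaged over blockers to 1.02 (adjusted p = 0.479), Cxcl10 for the blockers after bleomycin to -0.47 (adjusted p = 0.542) and Cxcl9 for the blockers after PBS to -0.0568 (adjusted p = 0.935). Type I interferon response list covariate changed Cxcl9 for bleomycin under the control blocker to 0.81 (adjusted p = 0.699), Cxcl10 for bleomycin under the control blocker to 1.01 (adjusted p = 0.485), Cxcl9 for bleomycin averaged over blockers to 0.73 (adjusted p = 0.118), Cxcl10 for bleomycin averaged over blockers to 0.81 (adjusted p = 0.0607), Cxcl11 for bleomycin averaged over blockers to 0.013 (adjusted p = 0.965), Cxcl10 for the blockers after bleomycin to -0.22 (adjusted p = 0.795), Ccl5 for the blockers after bleomycin to 0.27 (adjusted p = 0.813) and Ccl5 for the interaction to 0.12 (adjusted p = 1). Mean of a gene's spots changed Cxcl11 for bleomycin under the control blocker to 0.0299 (adjusted p = 0.923), Cxcl11 for bleomycin under the CAV1 blocker to -0.23 (adjusted p = 0.367), Cxcl11 for the blockers after bleomycin to -0.10 (adjusted p = 0.832), Cxcl11 for the blockers after PBS to 0.16 (adjusted p = 0.572) and Cxcl11 for the interaction to -0.26 (adjusted p = 0.517). Filter at the 50th percentile changed Cxcr3 for bleomycin under the control blocker to 0.61 (adjusted p = 0.0481) and Cxcl9 for bleomycin under the CAV1 blocker to 0.67 (adjusted p = 0.0434). T and NK cell list covariate changed Ccl5 for bleomycin under the control blocker to 0.44 (adjusted p = 0.167), Cxcl11 for bleomycin under the CAV1 blocker to -0.10 (adjusted p = 0.971), Ccl5 for bleomycin under the CAV1 blocker to 0.11 (adjusted p = 0.972), Ccl5 for bleomycin averaged over blockers to 0.27 (adjusted p = 0.399) and Ccl5 for the blockers after bleomycin to 0.0918 (adjusted p = 0.921). Arrays centred on the median changed Cxcl11 for bleomycin under the CAV1 blocker to -0.0176 (adjusted p = 0.957). RIN covariate changed Cxcl10 for the blockers after bleomycin to -0.50 (adjusted p = 0.154) and Ccl5 for the blockers after bleomycin to 0.0411 (adjusted p = 1). In the exact permutation test with arrays with a RIN of 9 only, the blocker difference after bleomycin was 0.0694 for Cxcl11 (p = 0.133) and 0.0411 for Ccl5 (p = 0.648). In the exact permutation test without the arrays low in skeletal muscle genes, the blocker difference after bleomycin was 0.13 for Cxcl11 (p = 0.0952). Correlations turned sign against those of raw signals over 16 arrays for deviations from group means over 12 bleomycin arrays: -0.216 for Cxcl9 and Cxcl10, 0.277 for Cxcl9 and Cxcl11, -0.125 for Cxcl9 and Cxcr3, 0.567 for Cxcl9 and Ccl5 and -0.0912 for Cxcr3 and Ccl5. Correlations turned sign against those of raw signals over 16 arrays for deviations from group means over 16 arrays: 0.544 for Cxcl9 and Ccl5 and 0.571 for Cxcl10 and Ccl5. Correlations turned sign against those of raw signals over 16 arrays without the 2 arrays farthest from the median: -0.419 for Cxcr3 and Ccl5.

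The replicate number as a block is not a pairing here: same-numbered arrays correlated at -0.69 to 0.352, and 1 of 6 bleomycin arrays correlated best with its own number; the counts and values with the replicate block are those given above. Leaving out 1 array at a time, bleomycin under the control blocker gave values of 91 to 4075 for the genes called, 0.77 to 1.07 for Cxcl9, -0.42 to -0.0443 for Cxcl11, 0.27 to 0.94 for Cxcr3 and -0.78 to 0.32 for Ccl5. With each array left out in turn, bleomycin under the CAV1 blocker gave values of 10 to 719 for the genes called, 0.57 to 0.77 for Cxcl9, 0.65 to 0.75 for Cxcl10, -0.0105 to 0.0404 for Cxcl11, -0.0653 to 0.22 for Cxcr3 and -0.61 to -0.54 for Ccl5. Leaving out 1 array at a time, bleomycin averaged over blockers gave values of 385 to 1923 for the genes called, 0.18 to 0.51 for Cxcr3 and -0.67 to -0.12 for Ccl5. With each array left out in turn, the blockers after bleomycin gave values of -0.63 to -0.51 for Cxcl10. Leaving out 1 array at a time, the blockers after PBS gave values of 34 to 4024 for the genes called, -0.0544 to 0.24 for Cxcl9, -0.00929 to 0.72 for Cxcl10, -0.31 to 0.0593 for Cxcl11 and -0.24 to 0.85 for Ccl5. With each array left out in turn, the interaction gave values of 0 to 3011 for the genes called and -0.88 to 0.21 for Ccl5. With single arrays left out, the exact permutation of the blockers after bleomycin gave values of -0.23 to -0.10 for Cxcl9 and 0.0773 to 0.14 for Cxcl11. The PBS groups hold 2 arrays each, so a left-out PBS array leaves a lone sample assumed to vary like the other groups.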
